A study of Mus musculus with 6 samples.

Results

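The genes described here encode the enzymes, regulators and one transport protein of sterol and fatty acid synthesis that are known as targets of the sterol regulatory element-binding proteins, with the genes of those factors themselves. Of 32 listed genes, 28 were measured among 22180 genes on the arrays, each by 1 probe set annotated to its symbol alone. Idi1, Scd2 and Acsl3 were left out because their probe set also carries another symbol, and Acat2 was not analysed here. Macrophages were grown with M-CSF for 7 days from bone marrow of 3 C57BL/KaLwRij mice and kept overnight with 5TGM1-luc cells, a mouse myeloma line that carries luciferase. Both groups therefore had myeloma cells in the culture. One group then received 0.5 nM of an antibody against mouse CSF1R, the M-CSF receptor, and the other a control IgG, each for 3 days. Myeloma cells were washed off 4 times before total RNA was taken, and each group gave 3 arrays. No age of the mice and no separate IgG dose was found in the labels. The labels also tie no array to a mouse, so the p-values cover only differences among these arrays, which could be technical replicates.

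Cells make cholesterol from acetyl-CoA through mevalonate, squalene and lanosterol, and make fatty acids from acetyl-CoA through malonyl-CoA. When membrane sterol is low, the protein SCAP carries the membrane-bound precursors of the transcription factors encoded by Srebf1 and Srebf2 from the endoplasmic reticulum to the Golgi, where proteases release the active factors. INSIG proteins hold that complex back when sterol is high. In macrophages, sterol intermediates and polyunsaturated fatty acids made by these enzymes are known to feed back on inflammatory gene expression.

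Sterol regulatory element-binding proteins act at promoters together with the factors NF-Y and Sp1. Promoters of 3 members with clear differences are shown from RefSeq (GRCm38.p6) as the 250 bases before the annotated start, 5′ to 3′ on the gene's strand. Hmgcs1 (chr13:119690101-119690350, plus strand) and Fads2 (chr19:10101504-10101753, minus strand) were among the members that rose most, and Fasn (chr11:120824548-120824797, minus strand) was 1 of the 2 that fell. Capitals mark TCACNCCAC (sterol response element), CCAAT (NF-Y box) and GGGCGG (GC box, for Sp1), on either strand.

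Hmgcs1: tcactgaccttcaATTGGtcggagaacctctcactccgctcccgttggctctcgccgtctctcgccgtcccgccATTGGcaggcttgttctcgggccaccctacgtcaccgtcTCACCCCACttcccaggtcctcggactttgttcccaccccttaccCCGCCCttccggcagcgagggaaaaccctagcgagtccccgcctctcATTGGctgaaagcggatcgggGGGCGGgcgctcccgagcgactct

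Fads2: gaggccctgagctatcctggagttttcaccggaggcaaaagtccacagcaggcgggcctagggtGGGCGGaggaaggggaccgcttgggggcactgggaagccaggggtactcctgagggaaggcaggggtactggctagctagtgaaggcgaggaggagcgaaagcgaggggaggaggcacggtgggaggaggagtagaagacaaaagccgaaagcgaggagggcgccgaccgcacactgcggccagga

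Fasn: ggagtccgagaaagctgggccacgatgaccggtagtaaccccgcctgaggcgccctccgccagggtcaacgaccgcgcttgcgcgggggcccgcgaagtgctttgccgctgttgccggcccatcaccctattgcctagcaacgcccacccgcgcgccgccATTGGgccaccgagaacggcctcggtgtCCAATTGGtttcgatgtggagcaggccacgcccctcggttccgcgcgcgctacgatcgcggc

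The motifs were searched in windows from 250 bases before to 50 bases after each start, of which 27 belonged to 22 of the 28 measured members. Fdft1, Fdps, Fads1, Scd1, Sqle and Stard4 had no window. TCACNCCAC was found in 1 member window, that of Hmgcs1, where it began 137 bases before the start, and in 1.24% of all 32851 windows. These letters are a narrow form of the element, and a window without them may hold another form. CCAAT was found in 74.1% of member windows and 37.4% of all windows, and GGGCGG in 74.1% and 35.7%. Over the 20611 windows of genes measured on the arrays the shares were 37.7% for CCAAT and 46.5% for GGGCGG. In Fasn a pair of NF-Y boxes on opposite strands overlapped. Of the 19 members with a CCAAT box, 9 rose, 1 fell and 9 did not pass the test. Of the 3 without one, 2 rose (Elovl6 and Fads2) and 1 fell (Acaca). Of the 18 with a GC box, 9 rose, 0 fell and 9 did not pass. Of the 4 without one, 2 rose (Elovl6 and Pmvk) and 2 fell (Acaca and Fasn). The Acaca window, not printed above, held none of the motifs. It was the only window for this gene, and whether its annotated start is used in these cells was not examined. The counts of members without a CCAAT or GC box include Acaca. No test of motif against direction was made. These matches describe the sequences and do not show binding.

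Signal is given as log2 of the deposited intensity, as mean ± SD over 3 arrays, and differences are antibody minus IgG on that scale, from limma with Benjamini-Hochberg adjustment over all 22180 genes and a threshold of 0.05. Median signal was 4.88 to 4.91 on the antibody arrays and 4.93 to 4.95 on the IgG arrays, so the antibody medians were all lower. Correlations across probe sets were 0.992 to 0.993 within groups and 0.984 to 0.985 between them. With 3 arrays in each group, precision is limited by their number. A guide to background was the 95th percentile of mean signal of 1390 olfactory and vomeronasal receptor genes, 4.92, and all 28 members had a group mean above it.

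After the antibody 11 of the 16 measured members that encode cholesterol synthesis enzymes rose. Stard4, the desaturases Fads1 and Fads2 and the elongase Elovl6 rose as well, while Fasn and Acaca, which make palmitate, fell. Lbr, a cholesterol synthesis gene outside the list, fell by 0.37. Of the 28 measured members, 15 rose and 2 fell, where 12.5% of all genes rose and 16% fell. Among the 13110 genes above the background guide, 20.1% rose and 26% fell. The median difference was 0.30 over the members and −0.02 over all genes. The antibody arrays lay wholly above the IgG arrays for 21 members and wholly below for 3, so 24 did not overlap. Over all genes the shares were 16.6% above, 22.7% below and 39.3% together, and among genes above the background guide 24.7% lay above. Most rises were below 2-fold. Stard4 and Fads2 passed that size, as did 2.89% of all genes. With 50 added to each intensity neither reached it, at log2 differences of 0.89 and 0.85. With cyclic loess scaling Hmgcs1 (1.09), Fdft1 (1.02) and Fads1 (1.01) passed it as well. With cyclic loess scaling of the arrays 21 members rose and 2 fell, and 59.2% of all called genes rose, against 43.8% without that scaling. With array medians made equal 17 members rose and 2 fell, and 52.6% of all called genes rose.

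**Figure D1:**
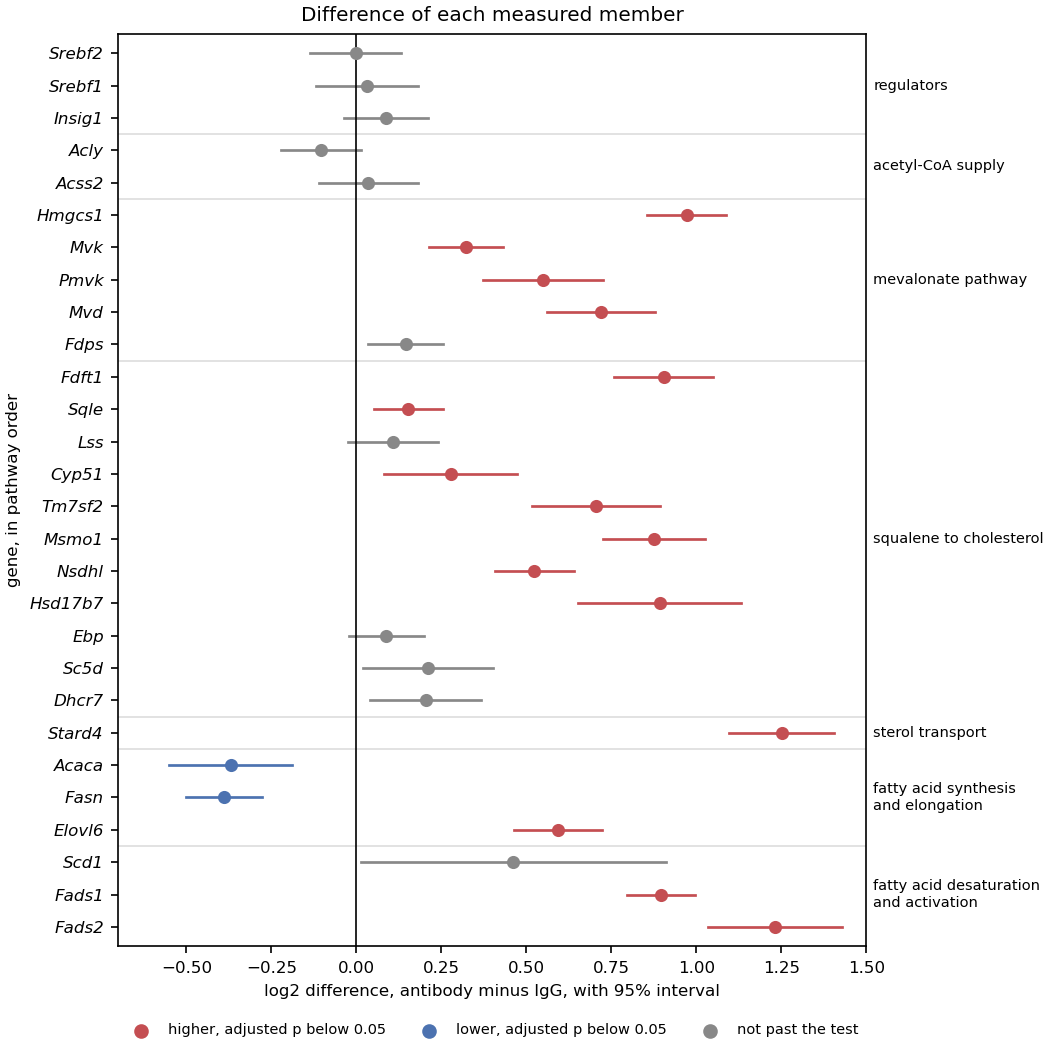
Difference of each of the 28 measured members in pathway order, as antibody minus IgG on the log2 scale (horizontal axis), with limma's 95% interval as a line. The 15 members in red rose and the 2 in blue, Acaca and Fasn, fell, while the 11 in grey did not pass the test.

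The regulators themselves did not pass the test. Srebf2, whose product mainly drives cholesterol genes, gave 10.06, 9.97 and 9.98 on the antibody arrays and 10.08, 9.97 and 9.97 on the IgG arrays. Its groups overlapped, and the 95% interval of the difference ran from −0.14 to 0.13 (adjusted p = 0.98). Srebf1, whose product mainly drives fatty acid genes, gave 7.67, 7.81 and 7.86 with the antibody and 7.76, 7.77 and 7.72 with IgG. These groups overlapped as well, with an interval from −0.12 to 0.18 (adjusted p = 0.77). Insig1, which holds the SCAP complex back and is itself a sterol-responsive target, gave 11.38, 11.40 and 11.47 with the antibody and 11.35, 11.36 and 11.28 with IgG. All antibody values were above all IgG values, but the difference of 0.09 had an interval from −0.04 to 0.21 (adjusted p = 0.28). With cyclic loess scaling Insig1 passed, at 0.20 (adjusted p = 0.017). The arrays measure transcripts, and these factors are activated by cleavage of the protein, which was not measured.

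All 16 measured members from Hmgcs1 to Dhcr7, the mevalonate and squalene-to-cholesterol steps together, were higher on every antibody array than on any IgG array. Of all genes 16.6% lay wholly above in this way, and of those above the background guide 24.7%. The test was passed by 11 of the 16, where 12.5% of all genes and 20.1% of those above the guide rose. The median difference of the 16 was 0.42. Of the 5 mevalonate pathway genes, 4 rose. Hmgcs1, the synthase that makes HMG-CoA, gave 11.05, 11.13 and 11.04 with the antibody and 10.07, 10.13 and 10.10 with IgG. The groups were far apart relative to their spread, with a rise of 0.97 (SE 0.05; 1.96-fold; limma adjusted p = 2.7e-05). Mvd, the decarboxylase that yields isopentenyl diphosphate, gave 8.10, 7.91 and 7.95 with the antibody and 7.34, 7.21 and 7.25 with IgG, a rise of 0.72 (SE 0.07; 1.65-fold; adjusted p = 0.00038). Pmvk, the second mevalonate kinase of the pathway, gave 8.38, 8.61 and 8.46 with the antibody and 7.97, 7.97 and 7.86 with IgG, and rose by 0.55 (SE 0.07). Here antibody replicate 1 was the lowest of its group and still above all IgG arrays. Mvk, the first kinase, gave 7.67, 7.70 and 7.72 with the antibody and 7.39, 7.34 and 7.39 with IgG, a smaller rise of 0.32 (SE 0.04; adjusted p = 0.0021). Fdps, which makes farnesyl diphosphate, was at 9.34 ± 0.04 with the antibody and 9.19 ± 0.02 with IgG (SD, n = 3). Its difference of 0.14 missed the threshold (adjusted p = 0.058), although all antibody values were higher. Fdps passed in 8 of 18 alternative settings, among them array medians made equal (adjusted p = 0.038).

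**Figure D2:**
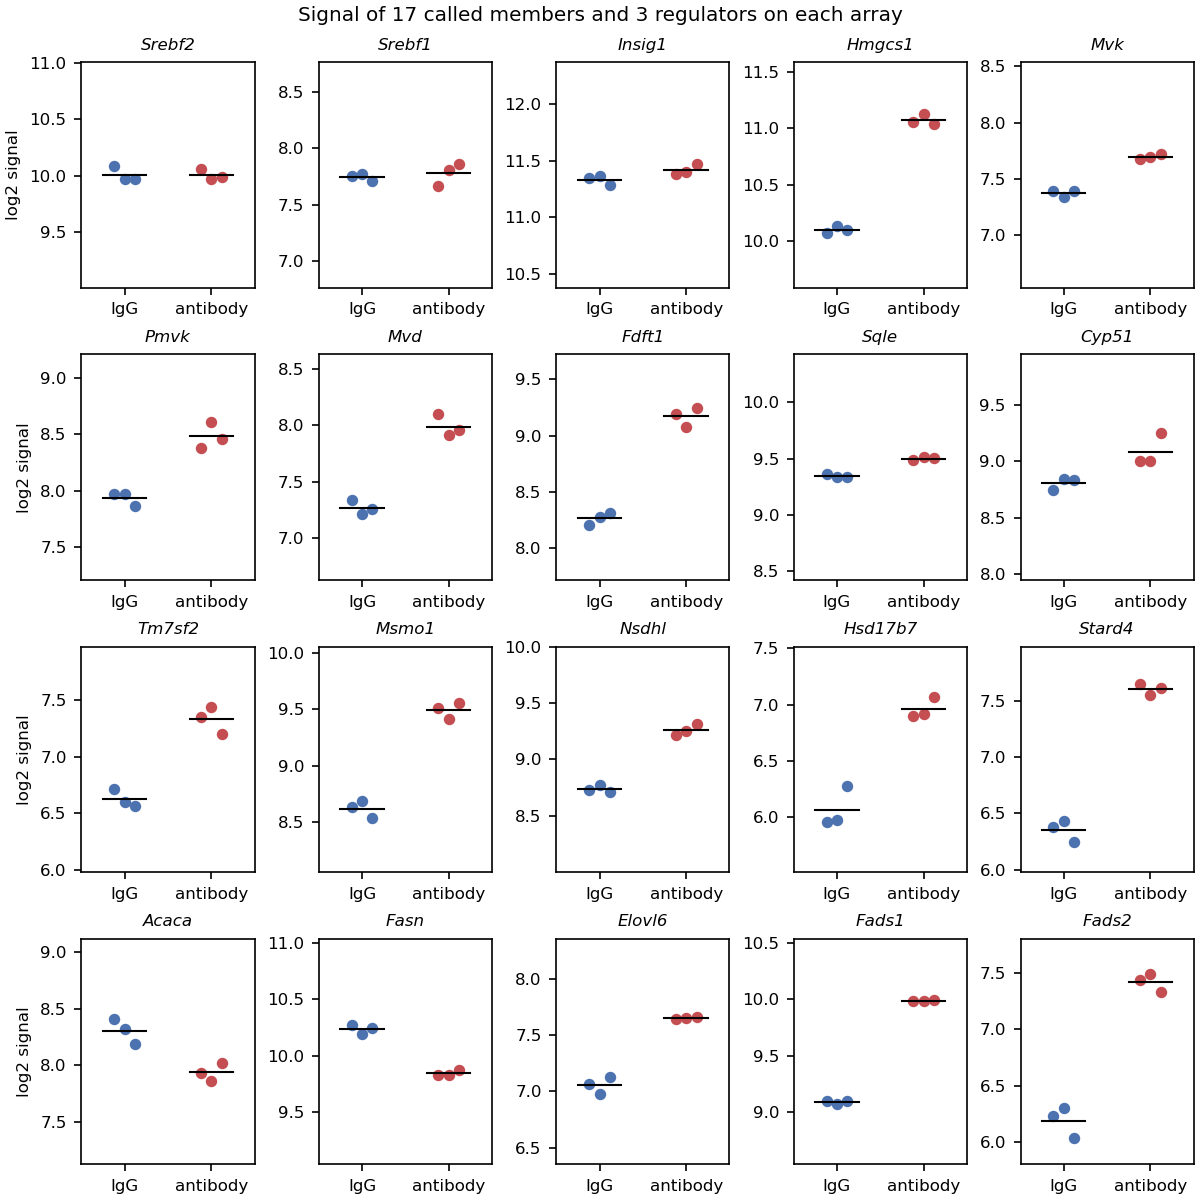
Log2 signal (vertical axis, each panel spanning the same range) on the 3 IgG and the 3 antibody arrays for the 17 members past the test and the 3 regulators; each point is an array and each line a group mean. The groups are apart for the 17 members and overlap for Srebf2 and Srebf1.

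Of the 11 members from squalene to cholesterol, 7 rose and 0 fell, with a median difference of 0.28. Fdft1, squalene synthase, the first enzyme committed to sterols, gave 9.19, 9.08 and 9.24 with the antibody and 8.21, 8.28 and 8.31 with IgG. That was a rise of 0.90 (SE 0.06; 1.87-fold; limma adjusted p = 9.6e-05). Msmo1, the sterol C4-methyl oxidase, gave 9.51, 9.42 and 9.55 with the antibody and 8.63, 8.69 and 8.54 with IgG, a rise of 0.88 (SE 0.06; 1.83-fold). Nsdhl, the dehydrogenase that acts after it in C4 demethylation, gave 9.22, 9.25 and 9.31 with the antibody and 8.73, 8.77 and 8.71 with IgG, a rise of 0.52 (SE 0.05). Hsd17b7, the ketoreductase that completes C4 demethylation, gave 6.90, 6.92 and 7.07 with the antibody and 5.96, 5.97 and 6.27 with IgG. IgG replicate 3 stood above the other two, and the rise was 0.89 (SE 0.10; 1.86-fold; adjusted p = 0.00082). With 50 added to each intensity the Hsd17b7 difference was 0.57. The 3 members that encode C4 demethylation enzymes thus all rose. Tm7sf2, a sterol C14 reductase, gave 7.35, 7.44 and 7.20 with the antibody and 6.71, 6.60 and 6.56 with IgG, and rose by 0.71 (SE 0.08; adjusted p = 0.00081). Lbr, a nuclear envelope protein with the same reductase activity and no member of the list, fell by 0.37 (SE 0.04; adjusted p = 0.00083).

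The other steps of this segment differed less. Cyp51, the lanosterol demethylase, gave 9.0002, 9.01 and 9.25 with the antibody and 8.74, 8.85 and 8.84 with IgG, with antibody replicate 3 highest, and rose by 0.28 (SE 0.08; adjusted p = 0.046). Sqle, squalene epoxidase, a rate-limiting step, gave 9.49, 9.51 and 9.50 with the antibody and 9.36, 9.34 and 9.34 with IgG. The arrays within each group were close, and the rise was 0.15 (SE 0.04; adjusted p = 0.036). Both calls were lost without any 1 of the 6 arrays, with adjusted p from 0.052 to 0.14 for Cyp51 and from 0.057 to 0.098 for Sqle, while the differences kept their sign. With the replicate number as a block they were lost as well (adjusted p = 0.12 for Sqle and 0.051 for Cyp51). Dhcr7, which makes cholesterol from 7-dehydrocholesterol, was at 8.92 ± 0.12 with the antibody and 8.71 ± 0.02 with IgG (SD, n = 3; adjusted p = 0.072). Like Fdps, Dhcr7 passed in 8 of 18 alternative settings, among them the one without antibody replicate 2 (0.26; adjusted p = 0.026). Sc5d, the desaturase one step earlier, was at 10.00 ± 0.14 and 9.79 ± 0.06 (adjusted p = 0.11), and passed in 3 settings. Lss, lanosterol synthase, differed by 0.11 (interval −0.02 to 0.24) and Ebp, the sterol isomerase, by 0.09 (interval −0.02 to 0.20), and neither passed (adjusted p = 0.22 for both). With cyclic loess scaling both passed, Lss at 0.22 (adjusted p = 0.020) and Ebp at 0.20 (adjusted p = 0.028), and the differences were 0.27 for Sqle, 0.26 for Fdps, 0.33 for Sc5d and 0.32 for Dhcr7. Ebp also passed with 50 added to each intensity (adjusted p = 0.048). For Hmgcs1, Fdft1, Msmo1 and Hsd17b7 the lower bounds of the intervals, 0.65 to 0.85, were above the upper bounds for Sqle, Lss and Ebp, 0.20 to 0.25. The size of the difference thus varied along the route, and no test between genes was made.

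Stard4, a cytosolic carrier that moves sterol between membranes, had the largest rise of the members with all 6 arrays, just above Fads2. It gave 7.65, 7.55 and 7.62 with the antibody and 6.38, 6.43 and 6.25 with IgG. The gap between groups was many times their spread, with a rise of 1.25 (SE 0.06; 2.38-fold; limma adjusted p = 2.9e-05). Among all 22180 genes 363 had a larger rise. The order of the members was not fixed, since Fads2 was above Stard4 with array weights and without antibody replicate 3, and Hmgcs1 was above it with 50 added to each intensity (0.94 against 0.89).

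Among fatty acid genes the steps split by enzyme. Fasn, the synthase that builds palmitate, gave 9.83, 9.83 and 9.87 with the antibody and 10.27, 10.19 and 10.24 with IgG. The groups did not overlap, and Fasn fell by 0.39 (SE 0.05; 1.31-fold higher with IgG; limma adjusted p = 0.0011). Acaca, acetyl-CoA carboxylase, which supplies malonyl-CoA to that synthase, gave 7.93, 7.86 and 8.02 with the antibody and 8.41, 8.33 and 8.19 with IgG, and fell by 0.37 (SE 0.08; adjusted p = 0.011). Elovl6, which elongates palmitate to stearate, moved the other way. It gave 7.64, 7.65 and 7.66 with the antibody and 7.07, 6.98 and 7.13 with IgG, a rise of 0.59 (SE 0.05; 1.51-fold; adjusted p = 0.00036). The intervals of Fasn, −0.50 to −0.28, and Elovl6, 0.46 to 0.72, lay on opposite sides of 0, and both kept their side in all 18 alternative settings.

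The desaturases of polyunsaturated fatty acids rose. Fads2, the delta-6 desaturase, gave 7.44, 7.49 and 7.33 with the antibody and 6.23, 6.30 and 6.04 with IgG. That was a rise of 1.23 (SE 0.08; 2.35-fold; adjusted p = 8.9e-05). Fads1, the delta-5 desaturase, gave 9.98, 9.98 and 9.99 with the antibody and 9.10, 9.08 and 9.10 with IgG, a rise of 0.90 (SE 0.04; 1.86-fold; adjusted p = 2.1e-05). The antibody arrays were nearly equal for Fads1. In the RefSeq table both genes lie on chromosome 19 with 0 protein-coding genes between them. Scd1, the stearoyl-CoA desaturase that makes monounsaturated fatty acids, was at 5.34 ± 0.37 with the antibody and 4.87 ± 0.16 with IgG (SD, n = 3). Its groups overlapped, its IgG mean was below the background guide, and the difference of 0.46 did not pass (adjusted p = 0.13). Without antibody replicate 1, the lowest of its group, Scd1 passed at 0.67 (adjusted p = 0.011), the 1 of 17 settings in which it did. It was at 0.32 without antibody replicate 2 and at 0.19 with 50 added to each intensity.

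The acetyl-CoA suppliers did not pass the test. Acly, which cleaves citrate in the cytosol, was at 9.92 ± 0.02 with the antibody and 10.02 ± 0.05 with IgG (SD, n = 3), with all antibody values below all IgG values (interval of the difference −0.22 to 0.01; adjusted p = 0.18). Its difference was −0.10, and 0.01 with cyclic loess. Acss2, which makes acetyl-CoA from acetate, was at 7.69 ± 0.08 and 7.66 ± 0.05 with overlapping groups (interval −0.11 to 0.18; adjusted p = 0.74).

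The pathway outside the members showed no common direction. Of 38 further genes listed for SREBP processing, sterol side branches and lipid synthesis, 30 were measured, and 4 rose and 8 fell, with a median difference of −0.03. With cyclic loess 6 of them rose and 4 fell. Above the background guide lay 28 of the 30. Among all genes above it 20.1% rose and 26% fell, so the counts of this list did not stand out from genes at large. Mid1ip1, whose product promotes the polymerisation of acetyl-CoA carboxylase, had the largest difference. It gave 8.46, 8.38 and 8.46 with the antibody and 7.31, 7.10 and 7.29 with IgG, a rise of 1.20 (SE 0.07; 2.29-fold; limma adjusted p = 5.0e-05). Mid1ip1 had 3 probe sets, and the difference over their mean was 0.53. Me1, the malic enzyme that supplies NADPH for fatty acid synthesis, gave 9.19, 9.19 and 9.30 with the antibody and 9.68, 9.85 and 9.74 with IgG, and fell by 0.53 (SE 0.06; adjusted p = 0.0010). Me1 therefore had the same direction as Fasn and Acaca. Acsl5, an acyl-CoA synthetase, fell by 0.34 (SE 0.06), and Rnf139, a ubiquitin ligase of the endoplasmic reticulum linked to sterol control, rose by 0.48 (SE 0.07).

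Besides Insig1, 4 measured genes escort, retain or cleave the precursors, and 1 of these 4 passed the test. Mbtps1, the site-1 protease, fell by 0.39 (SE 0.06; adjusted p = 0.0036), from 8.94 ± 0.10 to 8.55 ± 0.03 (SD, n = 3). Scap, Insig2 and Mbtps2 are named here after their values were seen. Scap was at 8.56 ± 0.04 with the antibody and 8.72 ± 0.06 with IgG (limma adjusted p = 0.066), with all antibody values below all IgG values. Its fall of 0.16 passed in 6 of 18 alternative settings, with adjusted p from 0.019 to 0.049 (0.049 without IgG replicate 1). Scap had 2 probe sets, and over their mean the difference was −0.12 (adjusted p = 0.14). Insig2 differed by −0.03 and Mbtps2, the site-2 protease, by 0.0022, and neither passed (adjusted p = 0.85 and 0.98).

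**Figure D3:**
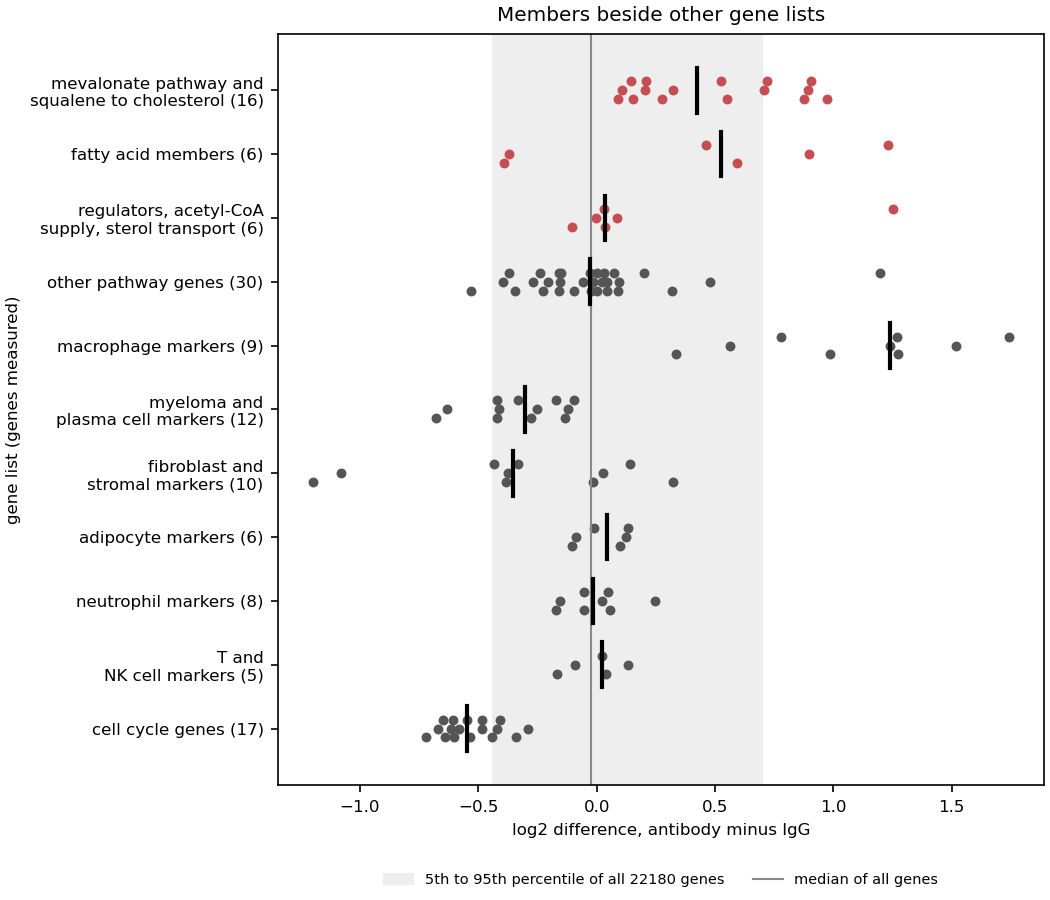
Differences of the members by role (red) and of other fixed gene lists (grey), antibody minus IgG on the log2 scale; each point is a gene, each black bar a list's median, and the shaded band the 5th to 95th percentile of all genes, −0.44 to 0.70. The cholesterol enzymes among the members lie above 0, the macrophage markers further to the right, and the cell cycle genes below 0.

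Markers of the cells in the culture moved on the same arrays, and their part in the members' differences was not tested. All 9 measured macrophage markers rose, with a median of 1.24, and their summed signal was 14.68 to 14.71 with the antibody and 13.88 to 13.94 with IgG. Of 12 myeloma and plasma cell markers 7 fell and 0 rose, with a median of −0.30 and summed signal of 13.67 to 13.84 against 14.04 to 14.07. All 17 cell cycle genes fell, with a median of −0.55 and summed signal of 13.56 to 13.67 against 14.07 to 14.09. Of 10 fibroblast and stromal markers 5 fell and 1 rose, with a median of −0.35 and summed signal of 10.04 to 10.11 against 10.93 to 10.98. The myeloma cells are of mouse origin and their transcripts cannot be told apart from those of macrophages, and fewer cells of a type and less RNA per cell cannot be told apart in such bulk samples. Adipocytes are a lipid-making cell of the marrow. Of 6 adipocyte markers 0 passed the test and 2 were above the background guide, with summed signal of 7.38 to 7.55 against 7.42 to 7.47, and Adipoq, the gene of adiponectin, was below the guide at 3.38 ± 0.06 and 3.26 ± 0.20. Of 8 neutrophil markers 1 was above the guide, with summed signal of 7.19 to 7.22 against 7.20 to 7.24. None of 5 T and NK cell markers was above it, with summed signal of 6.44 to 6.63 against 6.51 to 6.65.

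**Figure D4:**
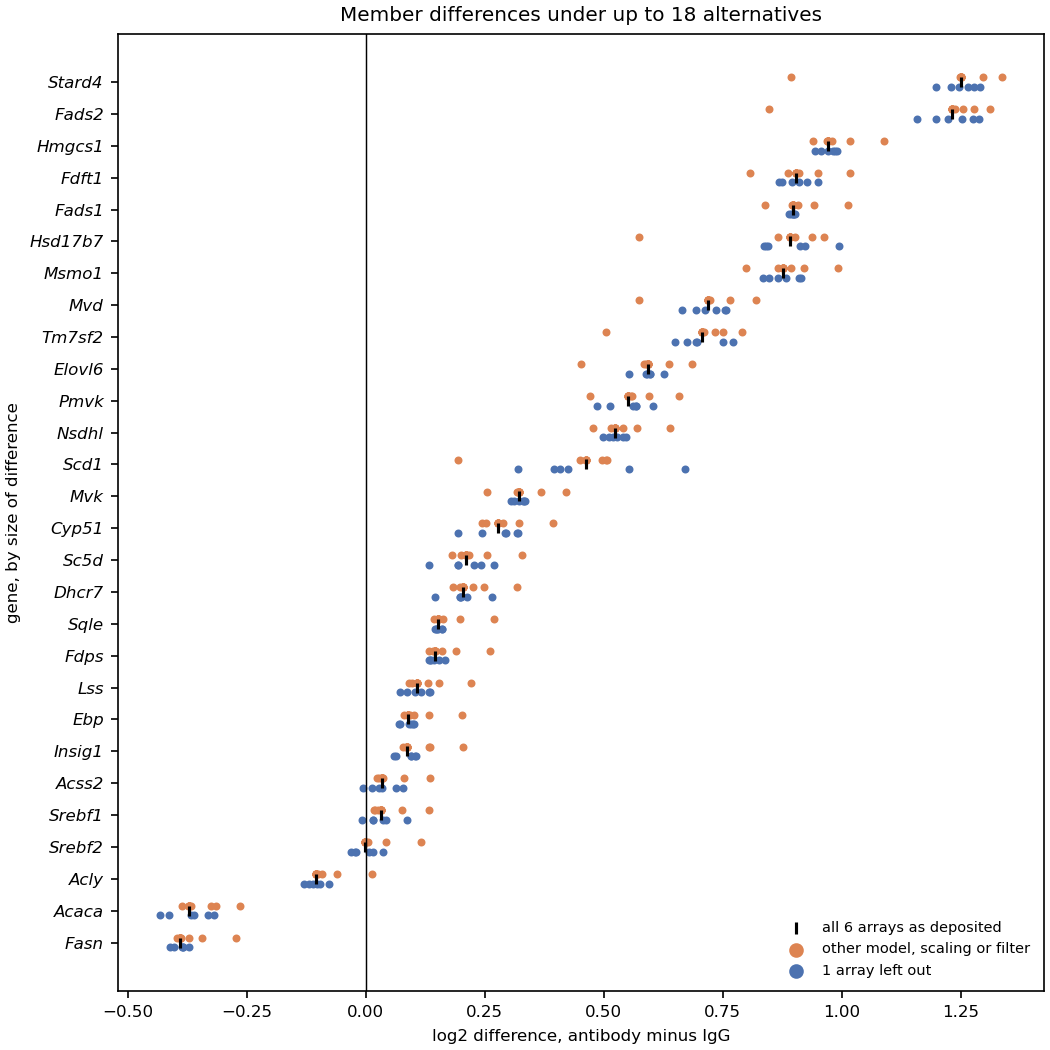
Difference of each member (antibody minus IgG on the log2 scale, horizontal axis) with all 6 arrays (black bar), with another model, scaling or filter (orange) and with 1 array left out (blue). Stard4, Fads2, Hmgcs1, Fads1 and Fdft1 stay above 0.8 under all of them, Fasn and Acaca stay below 0, and Srebf2, Srebf1, Acss2 and Acly cross 0.

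The values of the members were also looked at by array. Antibody replicate 3 was the highest of its group for 15 of the 28 members, replicate 2 for 8 and replicate 1 for 5, while the mean deviation of the members from their group mean lay between −0.03 and 0.03 on all 6 arrays. Values exactly equal between arrays of a group occurred in 4 members and in 26.3% of all genes, which bears on the spread that the test uses. Of the 17 members called, 15 were called in all 18 alternative settings that gave a difference, and the other two were Sqle and Cyp51.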

How the data were processed

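RNA for 6 arrays of macrophage cultures was labelled with biotin using WT PLUS reagents and measured on GeneChip Mouse Gene 2.0 ST arrays, per the labels' protocols. Per probe set, the deposited table holds intensity values on a linear scale, with RMA and limma named in the submitters' processing notes without version or role. RMA as usually run makes arrays alike in distribution, which can hide a shift shared by most genes and shrink fold changes. The genome build behind the values is not given in the sources used here.

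Values were taken as log2. Platform annotation gave 1 symbol to 23521 of 41345 probe sets, several to 1814 and none to 16010. Of those with 1 symbol, 99.2% had an entry in the RefSeq gene table (GRCm38.p6), and 0 symbols changed through it. The probe set with the highest mean was used per gene. The test was limma's (version 3.58.1 in R 4.3.3, lmFit and eBayes), without a block or filter. The fit was first run on simulated arrays with known changes and independent noise. Those arrays held no equal values or shifts shared by genes, so they do not show how the test fares with such features. Plots were drawn in Python 3.11.15 with matplotlib 3.10.9. The members and lists were chosen with earlier results of these data known. Values on every array are given for members that passed and had no overlap between groups and for the 3 regulators. Other pathway genes were named if among the 6 with the largest change past the test. Arrays were taken as unpaired because the labels tie no replicate number to a mouse. The correlations that follow depend on one another and cannot decide whether the numbers pair the arrays. Deviations of same-numbered arrays from their group means had correlations of 0.031, −0.053 and 0.0030 over all genes. Over the 28 members these were 0.49, 0.40 and 0.24, and those of arrays of unlike number −0.603 to 0.225. Alternatives tried were array weights, robust variances, an intensity trend, 3 other scalings, 50 added to each intensity, filters on dim genes, the mean of probe sets, other thresholds, a block for replicate number, and each array left out in turn. The filter at the background guide was added after the data were seen. Array batches were not analysed here.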

Additional observations from a re-analysis of the deposited data

How the results depend on the processing

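The count of members called was 17 as reported, 14 to 23 over the other models, scalings, filters and thresholds, and 15 to 16 with 1 array left out. At a threshold of 0.01, 13 members rose and 1 fell. The median difference of the members, 0.30 as reported, was 0.28 with array weights, 0.35 with arrays centred on their medians, 0.41 with cyclic loess, 0.23 with 50 added to each intensity, 0.28 over genes above the median signal and 0.26 to 0.33 with 1 array left out; the cause was not tested. With the replicate number as a block 15 members were called, Sqle (adjusted p = 0.12) and Cyp51 (adjusted p = 0.051) being lost, and 9 of the other pathway genes in place of 12. Over the members same-numbered arrays had correlations of 0.49, 0.40 and 0.24, and arrays of unlike number −0.603 to 0.225. Deviations from a group mean sum to 0 within each group. These correlations therefore depend on one another and do not show a pairing. Differences that changed sign belonged to genes that did not pass in any setting. Srebf2 was at −0.0024 as reported, 0.00062 with array weights, 0.043 with centred arrays, 0.12 with cyclic loess, 0.0057 with quantile scaling and −0.030 to 0.036 with 1 array left out. With 1 array left out Srebf1 ranged from −0.0082 to 0.087, Acss2 from −0.0051 to 0.078, Insig2 from −0.10 to 0.066 and Mbtps2 from −0.020 to 0.019. Acly was at 0.013 with cyclic loess, Insig2 at 0.016 with centred arrays and 0.063 with cyclic loess, and Mbtps2 at −0.0071 with array weights. Over all genes, 5285 to 6045 were called with 1 array left out, in place of 6314.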
